A study of Homo sapiens with 42 samples.

Results

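The 9 genes CEBPA, CEBPB, CEBPD, CEBPE, SPI1, GFI1, IRF8, RUNX1 and KLF4 encode transcription factors of the myeloid lineage. They were taken by symbol from a table of 57353 gene names, of which 12939 passed the filter on low counts, and all 9 passed it. The cells were MOLM-13, an established human acute myeloid leukemia line with FLT3-ITD, a duplicated stretch that leaves the receptor kinase FLT3 active, and no other line was used. The medium hBMSC-CM was an equal mix of RPMI and conditioned medium of the human bone marrow stromal line HS-5. Cultures were held for 12 hours in regular RPMI or in hBMSC-CM. They received vehicle (DMSO), the FLT3 inhibitor quizartinib at 3 nM, the mTOR inhibitor everolimus at 10 nM (in hBMSC-CM only) or both drugs together (combo), which gave 7 conditions with 3 cultures each. From each of the 21 cultures, poly(A) RNA of the whole lysate (input) and of the heavy polysomes, the part of a sucrose gradient with messages that carry many ribosomes, was sequenced. The design compares what FLT3 inhibition does in each medium, what the conditioned medium changes, and whether mTOR inhibition alters these responses in total and in polysome-associated RNA.

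Myeloid cells arise from progenitors under a small set of DNA-binding proteins that act on one another's genes. RUNX1 opens the program in stem and progenitor cells, and SPI1 (PU.1) and CEBPA commit cells to the granulocyte and monocyte branches. IRF8 and KLF4 favour monocytes, while GFI1 and CEBPE serve the neutrophil branch, and CEBPB and CEBPD act in stressed or cytokine-driven myelopoiesis and in inflammation. In FLT3-ITD leukemia, the active kinase is known to hold cells in an immature state.

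Total counts were 19.4 to 37.2 M reads for input and 21.5 to 38.8 M for polysome libraries. Levels are given as CPM, counts divided by a library's total and scaled by TMM factors, which compare samples on the assumption that most genes hold the same share, so a level is a share of a library's messages and not an amount per cell. In such bulk RNA, fewer cells of one kind and less RNA per cell cannot be told apart. The myeloid markers CD33 (50.1 to 107 CPM), MPO (28.6 to 122 CPM) and LYZ (385 to 1150 CPM) were present in every input library, and FLT3 itself was found at 29.3 to 335 CPM. Of the other lineages, GATA1, KLF1, CD3E and EBF1 reached at most 0.327 CPM in input, and the stromal genes COL3A1, LUM and POSTN had 0 counts in all 42 libraries. These marker levels and the marker sums below are CPM of the library total, without the TMM factors (1.06 to 1.25 in input). Group means of single genes below include the factors. Among replicates, the 3 everolimus cultures were closer to each other (common biological coefficient of variation 0.0716 in input and 0.138 in polysome) than those of the other 12 groups, which ranged from 0.181 to 0.385. The polysome libraries numbered 2 outside everolimus stood apart for several of the 9 genes, as given below. The study describes its replicates as biological, and how the everolimus cultures were kept apart is not given in the sources used here. P-values of comparisons with everolimus may therefore rest in part on technical spread. All 42 libraries share the main fit, so the everolimus libraries also enter the spread used for its other comparisons. P-values of those comparisons may be affected as well, and a KLF4 call in hBMSC-CM vehicle was lost without the everolimus libraries, as given below.

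The upstream sequence of 3 C/EBP genes is shown. CEBPB and CEBPE passed as higher in hBMSC-CM without drug, while the higher CEBPA levels there did not pass the test. CEBPD passed as higher in hBMSC-CM under quizartinib and under combo, but its upstream sequence was not used here. The sequences are from RefSeq (GRCh38.p14), run 5′ to 3′ on the gene's strand and hold the 250 bases before the start of the main (MANE) transcript, which for CEBPE lies within the annotated span of the gene: chr20:50190580-50190829 (plus strand) for CEBPB, chr14:23119256-23119505 (minus strand) for CEBPE and chr19:33302535-33302784 (minus strand) for CEBPA. Capitals mark matches on either strand to 4 short motifs, TTCNNNGAA (STAT), TTNNGCAA (C/EBP), GAGGAA (ETS) and CCAAT.
CEBPB: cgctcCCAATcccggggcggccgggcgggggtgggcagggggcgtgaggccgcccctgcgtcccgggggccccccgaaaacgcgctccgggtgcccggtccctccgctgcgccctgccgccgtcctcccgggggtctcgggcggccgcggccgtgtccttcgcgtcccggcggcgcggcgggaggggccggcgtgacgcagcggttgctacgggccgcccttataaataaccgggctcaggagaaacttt
CEBPE: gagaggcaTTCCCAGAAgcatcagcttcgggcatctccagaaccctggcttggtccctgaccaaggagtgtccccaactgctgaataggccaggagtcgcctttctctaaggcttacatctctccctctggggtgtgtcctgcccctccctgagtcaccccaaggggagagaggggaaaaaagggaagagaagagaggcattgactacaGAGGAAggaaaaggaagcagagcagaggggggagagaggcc
CEBPA: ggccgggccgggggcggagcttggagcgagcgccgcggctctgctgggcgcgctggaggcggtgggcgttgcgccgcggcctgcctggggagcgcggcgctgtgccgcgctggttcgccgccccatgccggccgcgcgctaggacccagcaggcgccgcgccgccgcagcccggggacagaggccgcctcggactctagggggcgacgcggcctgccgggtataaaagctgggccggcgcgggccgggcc
The CEBPE window holds the STAT letters at position -242 and the ETS letters at -41 from the start, the CEBPB window holds CCAAT at -245, and the CEBPA window holds none of the 4. Over 35116 such windows, the STAT letters were found in 6.57%, the C/EBP letters in 9.05%, the ETS letters in 23.6% and CCAAT in 32.0%, so these matches describe the letters only. None of the 4 overlaps another in the 3 windows.

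Each member was placed in the human genome with GENCODE v44 on GRCh38. CEBPA (ENSG00000245848) lies on chromosome 19 from 33299934 to 33302534 on the minus strand. CEBPB (ENSG00000172216) lies on chromosome 20 from 50190830 to 50192668 on the plus strand, and CEBPD (ENSG00000221869) on chromosome 8 from 47736913 to 47738164 on the minus strand. These 3 genes have a single exon in their MANE transcript, which holds for 1.97% of the tested genes with such a transcript. CEBPE (ENSG00000092067, chromosome 14, 23117036 to 23120256, minus strand) has 2 exons, and SPI1 (ENSG00000066336, chromosome 11, 47354860 to 47378547, minus strand) has 5. The transcripts of the 4 C/EBP genes and of SPI1 are rich in G and C: their GC content of 64.7% to 66.2% falls between percentiles 95.5 and 97.6 of the tested genes, whose median is 48.6%. GFI1 (ENSG00000162676, chromosome 1, 92473043 to 92486925, minus strand), IRF8 (ENSG00000140968, chromosome 16, 85899116 to 85922606, plus strand), RUNX1 (ENSG00000159216, chromosome 21, 34787801 to 36004667, minus strand) and KLF4 (ENSG00000136826, chromosome 9, 107484852 to 107490482, minus strand) lie between 46.2% and 55.9%. Exons of 2 unnamed genes on the opposite strand overlap CEBPA, those of CEBPB-AS1 overlap CEBPB, and those of 1 unnamed gene overlap KLF4. Whether the counting used strand is not given in the sources used here, so reads of these overlaps cannot be assigned to one strand.

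Per kilobase of merged exons, the order of input levels in RPMI vehicle ran from CEBPA (197 CPM per kb) and SPI1 (132 CPM per kb) through CEBPD (60.6), IRF8 (54.7), GFI1 (21.9), CEBPB (14.4) and RUNX1 (11.4) down to CEBPE (2.08) and KLF4 (0.942). Per kilobase of coding sequence, CEBPA stayed at rank 1 and CEBPE and KLF4 at ranks 8 and 9, while CEBPD moved from rank 3 to rank 6. The neutrophil factor CEBPE and the monocyte factor KLF4 were thus the rarest of the 9 messages by length, and their counts carry the largest relative counting error.

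**Figure D1:**
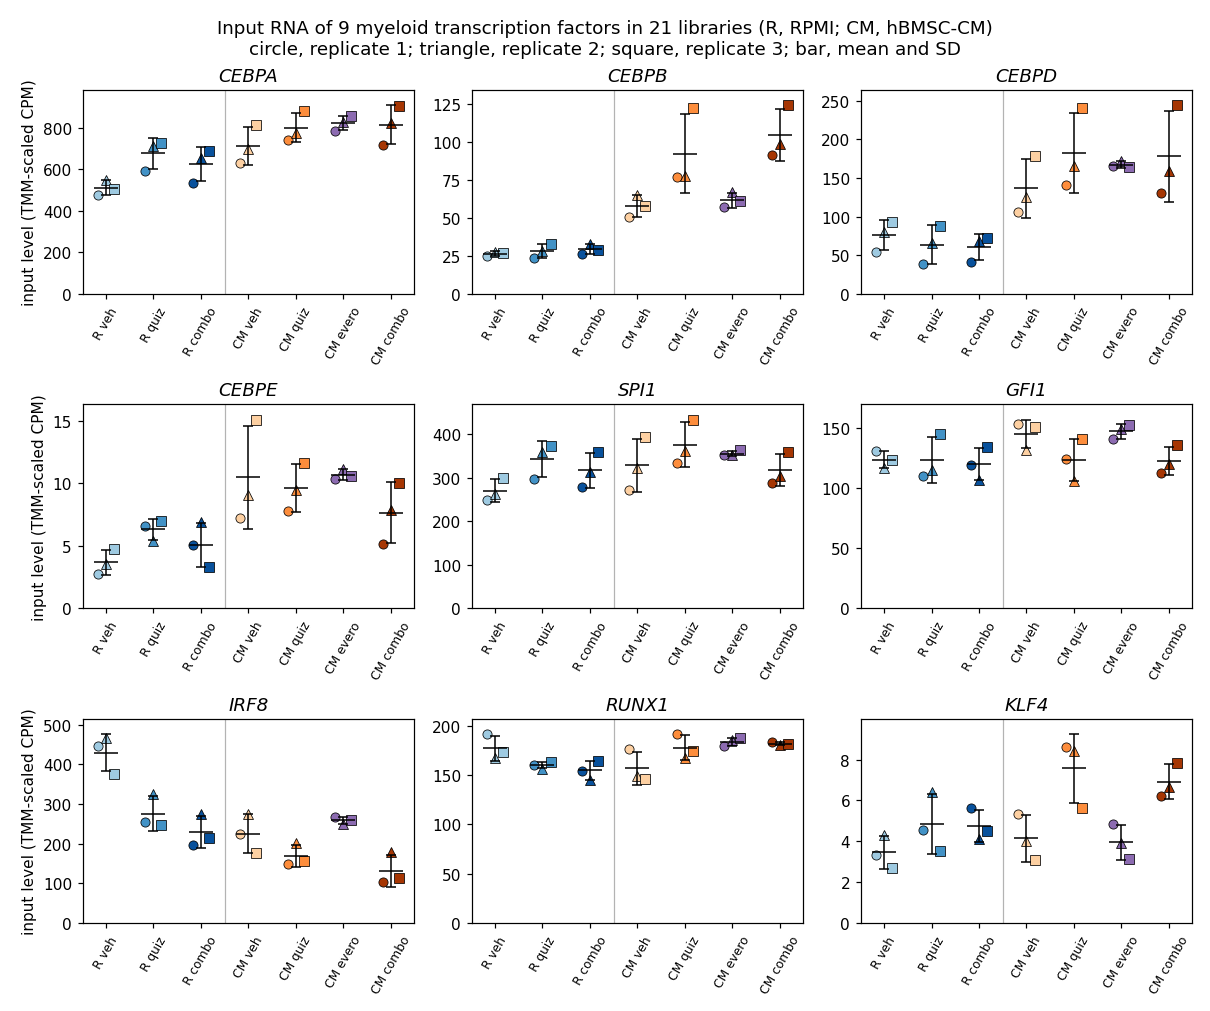
Input level of each of the 9 genes (TMM-scaled CPM, linear axis from 0) in the 21 input libraries by condition, with replicate numbers as symbols and bars for mean and SD (n = 3). CEBPB and CEBPD separate RPMI (left of the line) from hBMSC-CM (right) with no overlap, and IRF8 stands highest in RPMI vehicle.

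The clearest difference in input RNA was between the media. CEBPB and CEBPD were higher in hBMSC-CM than in RPMI, CEBPE was higher without drug, and IRF8 was lower under each treatment that both media shared. Over the 7 conditions together, 5 of the 9 genes differed in input by edgeR's quasi-likelihood test (CEBPB, CEBPD, CEBPE, IRF8 and KLF4), where 39.7% of all tested genes did. CEBPA, SPI1, GFI1 and RUNX1 did not pass (adjusted p = 0.437, 0.947, 0.432 and 0.569, edgeR). The fit gives each gene 1 spread over input and polysome libraries, so standard errors in input also carry the polysome spread. In hBMSC-CM quizartinib, the SD of CEBPA was 70.4 CPM on a mean of 800 in input and 829 CPM on 2187 in polysome. For SPI1 it was 51.5 CPM on 376 and 303 CPM on 716. With the replicate number as a block within each fraction, CEBPA passed as well (edgeR adjusted p = 0.00728), as it did with only the libraries of the groups compared in the fit (edgeR adjusted p = 0.00269). KLF4 no longer passed with no filter on low counts (edgeR adjusted p = 0.0939), or without RPMI vehicle replicate 3 or hBMSC-CM quizartinib replicate 1 or 2 (edgeR adjusted p = 0.0525, 0.0596 and 0.0637).

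CEBPB, a factor of emergency granulopoiesis and inflammation, had input levels of 24.8, 27.8 and 27.0 CPM in the RPMI vehicle cultures and of 50.6, 65.1 and 57.9 CPM in hBMSC-CM vehicle. Under quizartinib, its levels were 23.8, 28.3 and 33.0 CPM in RPMI and 77.0, 77.7 and 122 CPM in hBMSC-CM. Under combo, they were 26.4, 32.8 and 29.1 CPM in RPMI and 91.2, 98.5 and 124 CPM in hBMSC-CM. All 9 RPMI libraries (23.8 to 33.0 CPM) lay below all 12 hBMSC-CM libraries (50.6 to 124 CPM). In log2 terms, hBMSC-CM raised CEBPB by 1.13 without drug (SE 0.20, edgeR adjusted p = 0.00053), by 1.70 under quizartinib (SE 0.20, edgeR adjusted p = 1.4e-07) and by 1.83 under combo (SE 0.20, edgeR adjusted p = 3.6e-08). The order of the 7 conditions was combo, quizartinib, everolimus and vehicle in hBMSC-CM, then combo, quizartinib and vehicle in RPMI. Of the neighbours in this order, only quizartinib and everolimus in hBMSC-CM, and hBMSC-CM vehicle and RPMI combo, had ranges that did not overlap.

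CEBPD, which responds to cytokines and is often induced with CEBPB, was found at 54.8, 80.0 and 92.8 CPM in RPMI vehicle and at 106, 125 and 179 CPM in hBMSC-CM vehicle. Under quizartinib, the levels were 38.3, 65.6 and 87.8 CPM in RPMI against 141, 165 and 241 CPM in hBMSC-CM. The media did not overlap over all input libraries (38.3 to 92.8 CPM in RPMI, 106 to 244 CPM in hBMSC-CM), which held for CEBPB and CEBPD among the 9 and for 1.38% of all genes, and replicate 3 was the highest of its group in 6 of the 6 groups outside everolimus. The log2 difference of hBMSC-CM minus RPMI was 1.51 under quizartinib (SE 0.36, edgeR adjusted p = 0.0039) and 1.55 under combo (SE 0.36, edgeR adjusted p = 0.0041). Without drug it was 0.85 (SE 0.35, edgeR adjusted p = 0.43), which did not pass. With a block for the replicate number, the difference without drug passed (edgeR adjusted p = 0.0234, and 0.00409 with the block within each fraction). Under combo, the call was lost without hBMSC-CM replicate 3 (1.25, edgeR adjusted p = 0.0647) or RPMI replicate 1 (1.34, edgeR adjusted p = 0.0556).

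CEBPE, a factor needed for late neutrophil maturation, was found at 2.73, 3.56 and 4.73 CPM in RPMI vehicle and at 7.21, 9.09 and 15.1 CPM in hBMSC-CM vehicle. These groups did not overlap, and the log2 difference was 1.51 (SE 0.29, edgeR adjusted p = 0.0021). In the drug-treated cultures the difference between media was smaller and did not pass (0.60, SE 0.29, edgeR adjusted p = 0.249 under quizartinib, and 0.59, SE 0.29, edgeR adjusted p = 0.389 under combo). With only the libraries of the groups compared in the fit, the call without drug was lost (edgeR adjusted p = 0.0945).

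IRF8, which directs progenitors toward monocytes and dendritic cells, had the opposite pattern. Its input levels were 446, 466 and 376 CPM in RPMI vehicle, above all 18 other input libraries, which reached at most 326 CPM. In hBMSC-CM vehicle the levels were 224, 274 and 175 CPM. The difference of hBMSC-CM minus RPMI in log2 was -0.93 without drug (SE 0.19, edgeR adjusted p = 0.0027), -0.71 under quizartinib (SE 0.19, edgeR adjusted p = 0.010) and -0.80 under combo (SE 0.19, edgeR adjusted p = 0.0043). Replicate 2 held the highest IRF8 level in 6 of the 6 input groups outside everolimus. The call was lost without hBMSC-CM vehicle replicate 3 in the comparison without drug (-0.76, edgeR adjusted p = 0.0608), and under quizartinib without RPMI replicate 2 or hBMSC-CM replicate 1 or 3 (edgeR adjusted p = 0.0926, 0.0642 and 0.0663). Under combo it was lost without RPMI replicate 2 or hBMSC-CM replicate 1 or 3 (edgeR adjusted p = 0.0615, 0.0669 and 0.0572).

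In all, 3 of the 9 genes passed between media without drug (CEBPB and CEBPE higher, IRF8 lower), where 1.51% of all genes passed, 3 under quizartinib (background 8.16%) and 3 under combo (background 5.36%). Under both treatments these were CEBPB, CEBPD and IRF8. The libraries of the media did not overlap for 6 of the 9 genes in each of the 3 comparisons, where 16.1%, 29.8% and 21.5% of all genes did not overlap. CEBPA was among the 6 in each, higher in hBMSC-CM at log2 differences of 0.48, 0.24 and 0.38 (edgeR adjusted p = 0.916, 0.771 and 0.802). The median log2 difference of the 9 genes was 0.28 without drug, 0.24 under quizartinib and 0.38 under combo, against medians of -0.01, -0.03 and -0.03 over all genes. Summed stromal markers were 6.48 to 13.7 CPM in hBMSC-CM vehicle and 10.8 to 17.2 CPM in RPMI vehicle, so that they were not higher in the conditioned medium. Summed lymphoid markers were higher in hBMSC-CM: 28.9 to 57.5 CPM in RPMI vehicle and 73.0 to 137 CPM in hBMSC-CM vehicle, 36.2 to 66.3 and 127 to 203 CPM under quizartinib, and 28.0 to 66.0 and 105 to 210 CPM under combo. Of the 4 measured, 0 passed without drug and 1, NKG7, under each treatment. NKG7, a granule gene, made up most of the sum. Its TMM-scaled mean was 35.1 CPM in RPMI vehicle and 88.6 CPM in hBMSC-CM vehicle (edgeR adjusted p = 0.233). The means were 41.0 and 140.4 CPM under quizartinib (edgeR adjusted p = 0.0128) and 35.6 and 122.4 CPM under combo (edgeR adjusted p = 0.0164). The B and T cell genes EBF1 and CD3E were at or near 0. The part of these markers in the results for the 9 genes was not tested.

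**Figure D2:**
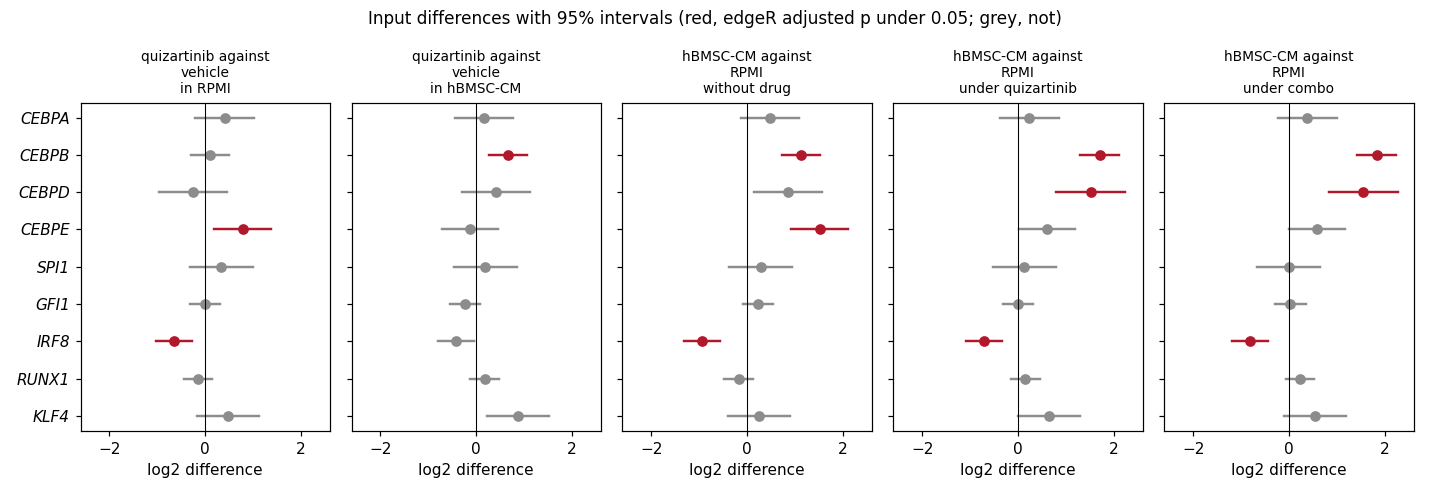
Log2 differences in input with 95% intervals for 5 comparisons (panels), 1 row per gene, red where edgeR's adjusted p was under 0.05. CEBPB lies to the right of 0 in the 3 panels that compare media, at 1.13, 1.70 and 1.83, and IRF8 lies to the left, at -0.93, -0.71 and -0.80.

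In the main fit, quizartinib calls were no more frequent among the 9 genes than among all tested genes. In RPMI, CEBPE rose and IRF8 fell, 2 of the 9 genes where 34.6% of all tested genes passed. In hBMSC-CM, CEBPB rose, 1 of the 9 where 12.3% passed. The libraries with and without the drug did not overlap for 4 of the 9 genes in RPMI (55.7% of all genes) and for 2 in hBMSC-CM (34.1%). These comparisons share vehicle libraries with the comparisons of media, so their values are not independent of those above.

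IRF8 in RPMI went from 446, 466 and 376 CPM with vehicle to 254, 326 and 247 CPM with quizartinib. The groups did not overlap, and the log2 difference was -0.64 (SE 0.19, edgeR adjusted p = 0.0067), a call lost with no filter on low counts (edgeR adjusted p = 0.0682). In hBMSC-CM it went from 224, 274 and 175 CPM to 149, 200 and 155 CPM, with overlapping groups, a log2 difference of -0.42 (SE 0.19, edgeR adjusted p = 0.135) and a lower level under quizartinib in 3 of 3 replicate pairs. With the replicate block, this decrease passed (edgeR adjusted p = 0.0399, and 0.0151 with the block within each fraction).

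CEBPE in RPMI was at 2.73, 3.56 and 4.73 CPM with vehicle and at 6.58, 5.39 and 7.01 CPM with quizartinib. The groups did not overlap (log2 difference 0.79, SE 0.29, edgeR adjusted p = 0.034), but the call was lost without vehicle replicate 1 or 2 or quizartinib replicate 1 or 3 (edgeR adjusted p = 0.171, 0.0868, 0.0657 and 0.107). CEBPE did not pass in hBMSC-CM, where the log2 difference was -0.12 (95% interval -0.70 to 0.45). The difference between media in the quizartinib effect was -0.91 for CEBPE (SE 0.41, edgeR adjusted p = 0.413), so a different response in the 2 media was not shown.

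CEBPB in hBMSC-CM went from 50.6, 65.1 and 57.9 CPM to 77.0, 77.7 and 122 CPM with quizartinib, without overlap (log2 difference 0.67, SE 0.20, edgeR adjusted p = 0.020). The call was lost without vehicle replicate 1 (0.59, edgeR adjusted p = 0.0945), vehicle replicate 3 (0.67, edgeR adjusted p = 0.0717) or quizartinib replicate 3 (0.42, edgeR adjusted p = 0.187). In RPMI, the log2 difference for CEBPB was 0.10 (95% interval -0.30 to 0.49). The difference of these effects was 0.58 (SE 0.28, edgeR adjusted p = 0.476) and did not pass. Stromal markers moved with the drug in hBMSC-CM as well: their sum was 6.48 to 13.7 CPM with vehicle and 19 to 36.9 CPM with quizartinib, and 2 of the 3 measured were called higher, COL1A1 among them (0.633 and 12.0 CPM, edgeR adjusted p = 0.000371). The part of this in the rise of CEBPB was not tested.

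KLF4, a zinc finger factor of monocyte differentiation, was found in hBMSC-CM at 5.34, 3.99 and 3.07 CPM with vehicle and at 8.64, 8.44 and 5.62 CPM with quizartinib. The groups did not overlap, but the log2 difference of 0.87 did not pass (SE 0.32, edgeR adjusted p = 0.064). It passed with the replicate block (edgeR adjusted p = 0.0356, and 0.0231 within each fraction) and in DESeq2 (adjusted p = 0.0272) and limma voom (adjusted p = 0.0217). In RPMI the difference was 0.49 (SE 0.32, edgeR adjusted p = 0.250).

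The other 5 genes did not pass in either medium. CEBPA, the main granulocytic C/EBP factor, was at 478, 550 and 506 CPM in RPMI vehicle and at 591, 713 and 729 CPM under quizartinib, groups that did not overlap (log2 difference 0.41, 95% interval -0.21 to 1.02, edgeR adjusted p = 0.318). In hBMSC-CM its difference was 0.17 (95% interval -0.45 to 0.78). For SPI1, CEBPD, GFI1 and RUNX1, the log2 differences were 0.34, -0.25, -0.01 and -0.15 in RPMI and 0.19, 0.42, -0.23 and 0.18 in hBMSC-CM. The interval was widest for CEBPD (-0.96 to 0.46 in RPMI), and it was narrowest for RUNX1 (-0.45 to 0.15 in RPMI). Stromal markers moved with the drug in RPMI: their sum was 10.8 to 17.2 CPM with vehicle and 25.8 to 54.9 CPM with quizartinib, 2 of the 3 measured were called higher, with COL1A1 at 0.948 and 20.5 CPM, while COL3A1, LUM and POSTN had no count. The part of this in the results for the 9 genes was not tested.

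None of the 9 genes passed when everolimus was added to quizartinib or given alone. For combo against quizartinib, the log2 differences ran from -0.31 (CEBPE) to 0.05 (CEBPB) in RPMI and from -0.36 (IRF8) to 0.18 (CEBPB) in hBMSC-CM. For everolimus against vehicle in hBMSC-CM they ran from -0.06 (KLF4) to 0.29 (CEBPD). All tested genes gave few calls in these comparisons, at 0.00773%, 0.24% and 0.41%. At an unadjusted p under 0.05, 0 of the 9 genes were found in each of the 3 by edgeR, and DESeq2 and limma voom made 0 calls as well. IRF8 under combo in hBMSC-CM was at 103, 178 and 112 CPM against 149, 200 and 155 CPM under quizartinib, lower in 3 of 3 replicate pairs with overlapping groups (-0.36, SE 0.19, edgeR adjusted p = 0.864). The response to quizartinib did not pass as different between media for any of the 9 genes (0 of 9, background 1.96%), 2 of which were under 0.05 unadjusted (CEBPB and CEBPE), and DESeq2 and limma voom made 0 calls.

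Related genes on 3 lists were read beside the 9. Of 18 measured paralogs and partners, 12 passed for quizartinib in RPMI (34.6% of all genes), 10 higher and 2 lower, with a median log2 difference of 0.59 against 0.08 over all genes. IRF7, a paralog of IRF8 in the interferon response, rose from 13.1 to 59.8 CPM (log2 difference 2.20, SE 0.28, edgeR adjusted p = 1.1e-07). CEBPZ, a nucleolar protein named for its CCAAT binding, fell from 123.7 to 47.3 CPM (-1.39, SE 0.38, edgeR adjusted p = 0.00382). In hBMSC-CM, 4 of the 18 passed (12.3% of all genes), all higher, with IRF7 at 20.1 and 49.0 CPM (1.28, SE 0.27, edgeR adjusted p = 0.00168). Between media, 0 of the 18 passed without drug (1.51% of all genes), and under quizartinib (8.16% of all genes) 1 was higher (RUNX3, 1.05, SE 0.21, edgeR adjusted p = 0.000831) and 3 lower, with KLF2 at 14.1 CPM in RPMI and 5.72 CPM in hBMSC-CM (-1.31, SE 0.42, edgeR adjusted p = 0.0448).

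Of 24 other hematopoietic transcription factors measured, 8 passed for quizartinib in RPMI, 5 higher and 3 lower, and 3 in hBMSC-CM, all higher, shares close to the 34.6% and 12.3% of all genes. In RPMI, NFE2 rose from 43.6 to 120.2 CPM (1.46, SE 0.45, edgeR adjusted p = 0.00966), and the immediate early gene EGR1 fell from 48.7 to 2.70 CPM (-4.17, SE 0.59, edgeR adjusted p = 6.82e-07). In hBMSC-CM, ETS2 rose from 71.3 to 112.4 CPM (0.66, SE 0.21, edgeR adjusted p = 0.0317). Between media, 2 passed without drug (1.51% of all genes), both higher in hBMSC-CM, with ID1 at 7.47 and 29.5 CPM (1.98, SE 0.34, edgeR adjusted p = 0.000399). Under quizartinib (8.16% of all genes), 5 were higher and 2 lower, with EGR1 at 2.70 and 44.1 CPM (4.03, SE 0.58, edgeR adjusted p = 6.25e-06) and LYL1 at 186.2 and 91.7 CPM (-1.02, SE 0.27, edgeR adjusted p = 0.0122).

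Of 26 measured myeloid genes on which the 9 factors are known to act, 9 passed for quizartinib in RPMI, 4 higher and 5 lower, the same share as the 34.6% of all genes. CSF1R, the receptor of the monocyte growth factor, rose from 15.9 to 129.2 CPM (3.03, SE 0.29, edgeR adjusted p = 5.71e-10), and PRTN3, a primary granule protease, fell from 7556 to 3139 CPM (-1.27, SE 0.37, edgeR adjusted p = 0.00687). In hBMSC-CM, 2 passed (12.3% of all genes), both higher, with CSF1R at 35.1 and 122.1 CPM (1.80, SE 0.28, edgeR adjusted p = 5.89e-05). Between media, 6 were higher and 1 lower without drug (1.51% of all genes), and 11 were higher and 1 lower under quizartinib (8.16% of all genes). S100A9, a calcium-binding protein of neutrophils and monocytes, was at 2.84 CPM in RPMI vehicle and 40.5 CPM in hBMSC-CM vehicle (3.83, SE 0.41, edgeR adjusted p = 6.29e-08), and at 4.60 and 82.2 CPM under quizartinib (4.16, SE 0.41, edgeR adjusted p = 4.96e-09). IL6R was the gene that fell in both (-0.71, SE 0.18, edgeR adjusted p = 0.030 without drug, and -0.77, SE 0.18, edgeR adjusted p = 0.00393 under quizartinib).

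Across the 21 input libraries, log2 levels of CEBPB and CEBPD went together (Pearson r = 0.904), and CEBPB went against IRF8 (r = -0.742). These are descriptions, since the libraries share conditions and replicate numbers. The tested genes most like CEBPB among those with at least 5 CPM were METRNL (r = 0.98) and SOCS3 (r = 0.96), and those most like CEBPD were HSH2D (r = 0.963) and SEMA4C (r = 0.958). For CEBPA they were SLC26A6 (r = 0.958) and PTAFR (r = 0.941), for CEBPE SQOR (r = 0.878) and S100A11 (r = 0.866), and for SPI1 ANKRD13D (r = 0.937) and KCNK6 (r = 0.929). For IRF8 they were ESYT2 and RNH1 (r = 0.921 each), for GFI1 NFIC (r = 0.812) and MRGBP (r = 0.8), for KLF4 SLC5A3 (r = 0.846) and MAN2A2 (r = 0.826), and for RUNX1 RNF44 (r = 0.777) and VAV1 (r = 0.771).

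**Figure D3:**
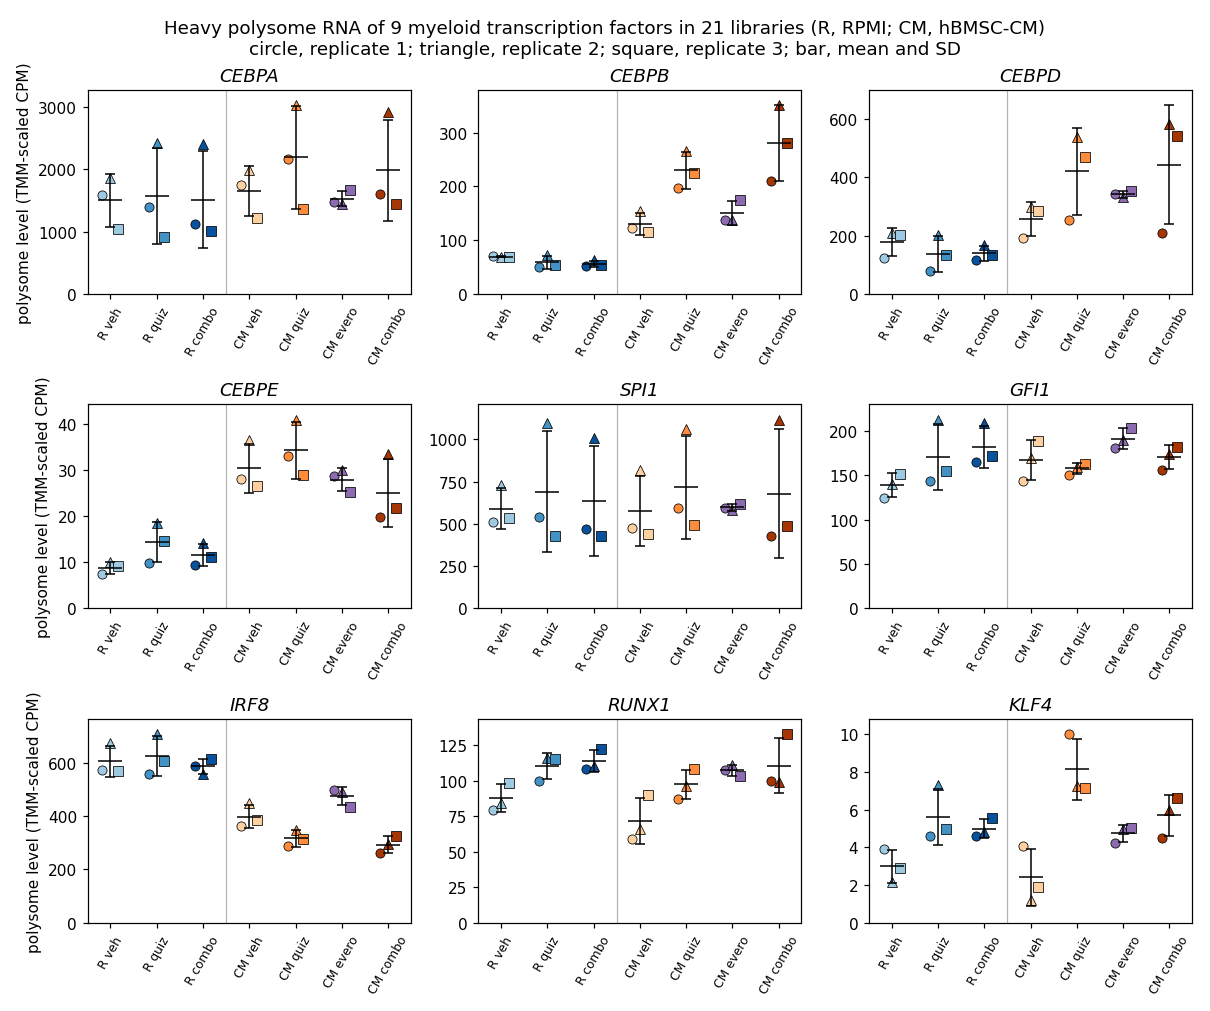
Heavy polysome level of each of the 9 genes (TMM-scaled CPM, linear axis from 0) in the 21 polysome libraries by condition, with replicate numbers as symbols and bars for mean and SD (n = 3). CEBPB, CEBPE and IRF8 separate the media with no overlap, and replicate 2 (triangles) is the highest SPI1 library of each group outside everolimus, at 728 to 1120 CPM.

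In the polysome fraction, the libraries of the media did not overlap for 3 of the 9 genes, where 0.835% of all genes did not overlap, and they overlapped for the other 6. The media were not tested within the polysome fraction alone. CEBPB was at 50.5 to 72.6 CPM in the 9 RPMI polysome libraries and at 115 to 351 CPM in the 12 of hBMSC-CM, CEBPE at 7.38 to 18.5 and 19.8 to 41.0 CPM, and IRF8 at 557 to 707 and 261 to 499 CPM, each without overlap. CEBPD overlapped (77.7 to 210 and 191 to 581 CPM). One number stood apart: the 6 polysome libraries numbered 2 outside everolimus held the highest level of their group for CEBPA, CEBPD, CEBPE and SPI1 in 6 of 6 groups, and for CEBPB in 5 of 6. SPI1 was at 728 to 1120 CPM in these 6 and at 426 to 596 CPM in the 12 others outside everolimus, which is 1.40 to 2.43 times the mean of the other replicates of the same group, and for CEBPA this ratio was 1.34 to 2.27. Over 10737 genes with a main transcript, log2 polysome number 2 minus the mean of 1 and 3 went with GC content (r = 0.332). Its median was 0.244 for the 497 genes with at least 64.7% GC and -0.0605 for all 10737. The part of GC content in the number 2 values of these members was not tested.

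Relative to input, most of these messages took a larger share of the heavy polysome libraries. CEBPA, CEBPB, CEBPD, CEBPE, SPI1 and IRF8 were higher in polysome than in input RNA in each of the 7 conditions (IRF8 in RPMI vehicle reversed with library size as the only scaling), RUNX1 was lower in each, GFI1 passed in 4 conditions, and KLF4 passed in 1. By edgeR's quasi-likelihood test, 7 of the 9 genes passed in RPMI vehicle, 8 in RPMI quizartinib, 8 in RPMI combo, 8 in hBMSC-CM vehicle, 7 in hBMSC-CM quizartinib, 8 in hBMSC-CM everolimus and 8 in hBMSC-CM combo. Of all tested genes, 65.4%, 57.9%, 59.3%, 63.6%, 58.7%, 58.6% and 63% passed in the same order. In the higher direction, 6, 7, 7, 6, 6, 7 and 7 of the 9 genes passed, against 31.5%, 31.2%, 31.7%, 29.6%, 29.7%, 27.9% and 32.9% of all genes. The median polysome minus input of the 9 genes was 0.83 to 1.16 in log2, against -0.11 to 0.06 over all genes.

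The 4 C/EBP messages and SPI1 had similar values. Polysome minus input in log2 was 0.89 to 1.55 for CEBPA, 0.93 to 1.42 for CEBPB, 0.92 to 1.32 for CEBPD, 1.18 to 1.84 for CEBPE and 0.75 to 1.13 for SPI1 over the 7 conditions, and all 35 values passed (edgeR adjusted p = 0.0469 or lower). Among all tested genes, these values lay between percentiles 73.5 (SPI1) and 98.4 (CEBPE). GC content moved with this measure: over 10737 genes with a main transcript, the correlation of GC content with polysome minus input was r = 0.658 to 0.732 by condition, where genes are not independent replicates. The 497 genes with at least 64.7% GC, the lowest of the 5 members, had a median of 0.942 to 1.33, against -0.01 to 0.20 for all genes with a main transcript. The part of GC content in the values of the 5 members was not tested. In the cultures, CEBPA in RPMI quizartinib had polysome minus input values of 1.23, 1.76 and 0.33 in replicates 1, 2 and 3, and SPI1 had 0.87, 1.62 and 0.21. Without the replicate 2 culture, SPI1 no longer passed in RPMI vehicle (0.93, edgeR adjusted p = 0.0528), RPMI quizartinib (0.54, edgeR adjusted p = 0.243), RPMI combo (0.50, edgeR adjusted p = 0.282), hBMSC-CM vehicle (0.46, edgeR adjusted p = 0.326), hBMSC-CM quizartinib (0.51, edgeR adjusted p = 0.293) or hBMSC-CM combo (0.51, edgeR adjusted p = 0.247). In everolimus, SPI1 no longer passed without any 1 of the 3 cultures (edgeR adjusted p = 0.126 to 0.149). CEBPA no longer passed without the replicate 2 culture in RPMI quizartinib (0.80, edgeR adjusted p = 0.0614) and RPMI combo (0.80, edgeR adjusted p = 0.0547), and CEBPD in RPMI quizartinib (0.75, edgeR adjusted p = 0.15), hBMSC-CM vehicle (0.74, edgeR adjusted p = 0.152), hBMSC-CM quizartinib (0.92, edgeR adjusted p = 0.085) and hBMSC-CM combo (1.00, edgeR adjusted p = 0.0526). With library size as the only scaling, which moved the median of all genes to between -0.63 and -0.22, 1 of 7 SPI1 values and 2 of 7 CEBPD values passed, while CEBPB and CEBPE passed in all 7. CEBPA in everolimus did not pass with that scaling or without replicate 1 or 3 (edgeR adjusted p = 0.0646, 0.0639 and 0.0683).

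**Figure D4:**
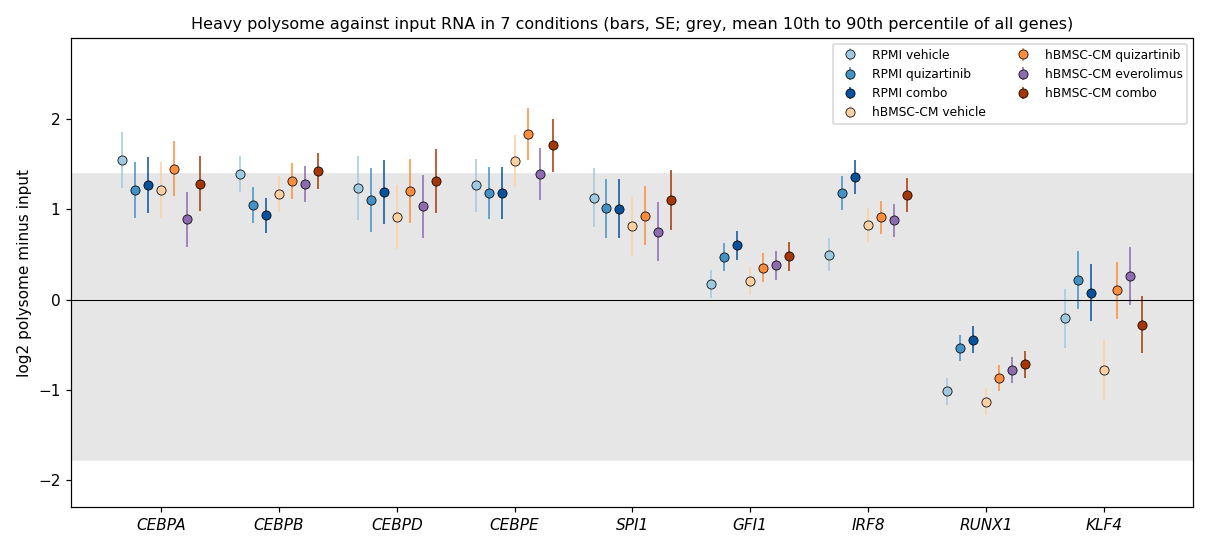
Log2 polysome minus input of the 9 genes in 7 conditions (colours) with standard errors, the grey band giving the 10th to 90th percentile of all tested genes averaged over conditions. The C/EBP genes, SPI1 and IRF8 lie above 0 and RUNX1 below it in every condition, from -1.13 to -0.44.

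RUNX1, whose main transcript is the longest of the 9 at 5971 bases with a 3′ UTR of 4334 bases, was the one member with a consistently smaller share in polysomes. In RPMI vehicle its levels were 191, 167 and 173 CPM in input and 79.6, 84.6 and 98.6 CPM in polysome RNA, without overlap (log2 difference -1.02, SE 0.15, edgeR adjusted p = 6.8e-07). In hBMSC-CM vehicle they were 176, 148 and 146 CPM against 59.0, 65.8 and 90.1 CPM (-1.13, SE 0.15, edgeR adjusted p = 1.3e-07). The smallest differences were in RPMI quizartinib (-0.53, SE 0.15, edgeR adjusted p = 0.0026) and RPMI combo (-0.44, SE 0.15, edgeR adjusted p = 0.010), and the latter call was lost without replicate 1 (-0.41, edgeR adjusted p = 0.065). In all 7 conditions RUNX1 was lower in polysome than in input in 3 of 3 cultures, at percentiles 25 to 36 of all genes.

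Of the 6 genes higher in polysomes, IRF8 ranged most among conditions. Its polysome minus input was 0.50 in RPMI vehicle (SE 0.18, edgeR adjusted p = 0.0188), 1.18 in RPMI quizartinib (SE 0.19, edgeR adjusted p = 3.2e-06) and 1.36 in RPMI combo (SE 0.19, edgeR adjusted p = 3e-07), and 0.83, 0.91, 0.88 and 1.16 in hBMSC-CM vehicle, quizartinib, everolimus and combo. The value in RPMI vehicle did not pass without replicate 2 (0.48, edgeR adjusted p = 0.0773) or 3 (0.45, edgeR adjusted p = 0.085), without the polysome libraries numbered 2 (0.36, edgeR adjusted p = 0.126), or with library size as the only scaling, where it was -0.06. GFI1, a transcriptional repressor that favours the neutrophil branch, had 0.17 to 0.60 and passed in RPMI quizartinib, RPMI combo, hBMSC-CM everolimus and hBMSC-CM combo. With the replicate block it passed in hBMSC-CM quizartinib (edgeR adjusted p = 0.0253), and with the block within each fraction it did not pass in hBMSC-CM everolimus (edgeR adjusted p = 0.0858). KLF4 passed in hBMSC-CM vehicle alone, at 5.34, 3.99 and 3.07 CPM in input and 4.08, 1.22 and 1.92 CPM in polysome RNA, with overlapping groups (-0.78, SE 0.33, edgeR adjusted p = 0.0371). That call was lost in DESeq2 (adjusted p = 0.0618), without replicate 2 (-0.49, edgeR adjusted p = 0.271) or 3 (-0.86, edgeR adjusted p = 0.0565), and without the everolimus libraries (-0.64, edgeR adjusted p = 0.0983).

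Whether a treatment moved a message in the polysomes beyond its change in input was tested by the interaction of treatment and fraction. For none of the 9 genes did this pass in the 6 comparisons made. Unadjusted, 2 genes were under 0.05 for quizartinib in RPMI (IRF8 and RUNX1) and 1 for everolimus (KLF4). Over the 7 conditions together, 0 of the 9 passed (background 1.87%), with IRF8 and RUNX1 under 0.05 unadjusted and called with the replicate block within each fraction (edgeR adjusted p = 0.0102 and 0.0111). DESeq2 and limma voom made 0 calls among the 9 in these 7 tests. For quizartinib against vehicle in RPMI, 1.55% of all genes passed, and in the other 5 comparisons 0% did, which limits what these comparisons could call for any gene.

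The largest interaction in RPMI was that of IRF8. While its input level fell under quizartinib, its polysome levels were 573, 672 and 570 CPM with vehicle and 559, 707 and 606 CPM with quizartinib, groups that overlapped. Polysome minus input was 0.36, 0.53 and 0.60 in the vehicle cultures and 1.14, 1.12 and 1.29 in the quizartinib cultures, without overlap. The interaction was 0.68 (SE 0.26, edgeR adjusted p = 0.186). It passed with the replicate block within each fraction (0.69, edgeR adjusted p = 0.0127), and over all alternatives the adjusted p ranged from 0.0127 to 0.825. RUNX1 had -1.26, -0.98 and -0.81 with vehicle and -0.68, -0.43 and -0.49 with quizartinib, again without overlap (interaction 0.48, SE 0.21, edgeR adjusted p = 0.248, and 0.0389 with the block within each fraction). For the 4 C/EBP genes and SPI1 the interaction lay between -0.34 and -0.08, with intervals from -1.20 to 0.87. KLF4 in hBMSC-CM had interactions of 0.88 for quizartinib (95% interval -0.04 to 1.80) and 1.04 for everolimus (95% interval 0.12 to 1.97), both with an edgeR adjusted p of 1, at polysome levels of 4.08, 1.22 and 1.92 CPM with vehicle, 10.0, 7.28 and 7.17 CPM with quizartinib and 4.24, 4.96 and 5.04 CPM with everolimus.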

How the data were processed

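RNA-seq was analysed in 42 libraries, 1 of input and 1 of heavy polysomes from each of 21 MOLM-13 cultures. The authors enriched poly(A) RNA and sequenced read pairs, cleaned them of adapters and short reads with BBDuk, and used STAR 2.6.0a for alignment to Ensembl hg38.p12 and for counting. The deposited values are raw counts per gene, with no normalization. Groups and replicate numbers were taken from the sample labels, and 0 columns were left unused. Messages with short tails can be missed by poly(A) enrichment, and a spike-in is not described, so levels are shares of a library.

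Of 58884 gene rows, 25133 held no count. Rows of 150 repeated names were summed, and a gene was kept if its mean over all libraries reached 1 count and also 1 CPM (12939 genes, 99.8% of the counts). All 42 libraries, at 19.4 to 38.8 M counts, entered 1 edgeR 4.0.16 quasi-likelihood fit (R 4.3.3) with TMM factors, 14 group means and no block. Two-sided p-values were adjusted by Benjamini-Hochberg over 12939 genes, and an adjusted p under 0.05 was called. Polysome changes were tested as the interaction with fraction. There were 22 comparisons with a direction and 2 tests over the 7 conditions, and 95% intervals are those of the fit. Tools were tested on simulated counts of known fold changes, for the input comparison of media without drug. These had a spread below the common one of the data and no deviations shared by replicate number. The polysome comparisons were not covered.

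No block is named in the study's methods. Same-numbered cultures deviated together within a fraction (correlation of deviations from group means 0.331 to 0.658 in input and 0.156 to 0.715 in polysome, without everolimus, whose numbers did not), so blocked values are given where they change a call. Between input and polysome of a culture the correlation was -0.0438 to 0.303. DESeq2 1.42.0, limma 3.58.1 voom, other scalings and filters, only the groups compared, both forms of the block and leaving out each culture were alternatives.

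The 9 genes and the related lists were chosen with earlier results of these data known. All 9 genes are named. From each list, the called gene with the largest rise and the one with the largest fall among those with a mean of at least 10 CPM was named in 4 comparisons, and for each of the 9 genes the 2 genes with the highest correlation over the input libraries. Positions, lengths and GC content come from GENCODE v44 (GRCh38), matched by the Ensembl gene ID of the counted row. The authors counted with another annotation release of the same assembly. Upstream sequences of 7 of the 9 genes were matched in RefSeq, and those of CEBPD and SPI1 were not used here.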

Additional observations from a re-analysis of the deposited data

How the results depend on the processing

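Of 421 counts of called genes recomputed under the alternatives, 393 stayed within 1.5 times the reported count. Several of the 24 reported counts were 0, in comparisons where at most 1.96% of all genes passed, so agreement there says little. Of 993 recomputed values of genes that passed, 883 kept direction and call, 109 lost the call and 1 reversed. The cause was not tested except where the setting itself shows it. The block changed calls only as printed beside the results above (input: CEBPD, IRF8, KLF4 and CEBPA; polysome: GFI1, IRF8 and RUNX1). For quizartinib against vehicle in RPMI (2 genes), 0 passed with no filter. In hBMSC-CM (1 gene), 0 passed with no filter or only the groups compared, 2 in DESeq2 or limma voom, and 3 with the replicate block in either form. For hBMSC-CM against RPMI without drug (3 genes), 1 passed with only the groups compared. For polysome minus input, library size as the only scaling gave 5 genes in RPMI quizartinib, 5 in hBMSC-CM vehicle, 4 in hBMSC-CM quizartinib and 4 in hBMSC-CM everolimus, and a filter at a mean of 10 CPM gave 5 in hBMSC-CM vehicle and 4 in hBMSC-CM everolimus. Library size alone moved the median of all genes to between -0.63 and -0.22, and IRF8 in RPMI vehicle reversed to -0.06335 (edgeR adjusted p = 0.8), while GFI1 went from 0.17 to -0.38 (edgeR adjusted p = 0.044). With the block within each fraction, 2 genes passed for the polysome change of quizartinib in RPMI and 2 over the 7 conditions. Leaving out each culture in turn gave 1 to 2 genes for quizartinib in RPMI, 0 to 1 in hBMSC-CM, 2 to 3 between media without drug and under quizartinib, and 1 to 3 under combo (1 without hBMSC-CM combo replicate 3). For polysome minus input it gave 5 to 7 in RPMI vehicle, 4 to 8 in RPMI quizartinib, 5 to 8 in RPMI combo, 5 to 7 in hBMSC-CM vehicle, 5 to 7 in hBMSC-CM quizartinib, 4 to 6 in hBMSC-CM everolimus and 5 to 7 in hBMSC-CM combo. The lowest counts came without replicate 2 in RPMI quizartinib, RPMI combo, hBMSC-CM vehicle and hBMSC-CM combo, and without replicate 1 or 3 in everolimus. Leaving out the everolimus libraries or the polysome libraries numbered 2 was chosen after seeing the data. Depth limits CEBPE and KLF4 most, at under 16 CPM in input.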
